A study of Bos taurus with 16 samples.

Results

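The cells described here were sorted from the endometrium of pregnant cows with an antibody to CD14, a coreceptor for bacterial lipopolysaccharide carried by monocytes and macrophages. Macrophages are tissue phagocytes that clear dying cells, take up iron and lipid and present antigen, and in cattle they accumulate in the pregnant uterus between the placentomes. All 8 samples whose labels name endometrial CD14+ cells were taken, of 16 in all, and the 8 others are CD14+ cells from blood of the same cows. The 8 come from 4 cows, each preparation hybridised on 2 arrays opposite blood of the same cow, and n below is always 4 animals, since the repeats use the RNA of 1 preparation.

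Endometrial cells and blood cells were compared on 2-colour bovine oligonucleotide arrays to ask what sets macrophages of the pregnant uterus apart from circulating monocytes. The cows, animals 1 to 4, were at days 164, 239, 242 and 248 of pregnancy, so day of pregnancy and animal cannot be told apart for the earliest cow. No agent was given to any animal, and both groups came from slaughtered pregnant cows with no genotype stated. Endometrium from between the placentomes was minced and digested with collagenase, whereas blood was not digested. Both suspensions then went over a density gradient and through 2 rounds of sorting on CD14 within a monocyte scatter gate, and the RNA was amplified before labelling. A level below is the deposited log2 value, quantile-normalized over all channels, averaged over the 2 hybridisations of an animal, and every channel has a median of 8.0. Between 65.2% and 82.9% of spots stood well above background in the endometrial channels and between 68.4% and 76.5% in the blood channels. A probe was called detected when it stood well above background in all 8 endometrial channels.

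The markers of the label did not give a uniform picture of the 4 preparations. CD14 itself, measured by 1 probe, stood at 14.04, 6.07, 9.5 and 7.38 in animals 1 to 4, so that in animals 2 and 4 it lay below the median of all probes. CD68, a lysosomal glycoprotein of macrophages, stood at 14.58, 7.21, 10.55 and 11.60 in the same order. CD163, the haemoglobin scavenger receptor, stood at 16.14, 9.58, 13.19 and 13.16. All 3 genes were highest in animal 1 and lowest in animal 2.

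The other markers ran the same way. MRC1, the mannose receptor, stood at 14.95, 8.24, 10.41 and 10.93 in animals 1 to 4. The complement subunits C1QA and C1QB, made chiefly by tissue macrophages, were well above the median in every animal: C1QA was at 16.52, 11.27, 14.11 and 13.63, and C1QB at 16.40, 13.16, 14.95 and 14.92. All 6 markers were detected in every channel, all 6 were highest in animal 1, and all 6 were lowest in animal 2, whereas of the 11885 detected probes 17.3% were highest in animal 1 and 15.9% were lowest in animal 2. In bulk samples such as these, fewer cells of a type and less RNA per cell cannot be told apart.

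**Figure D1:**
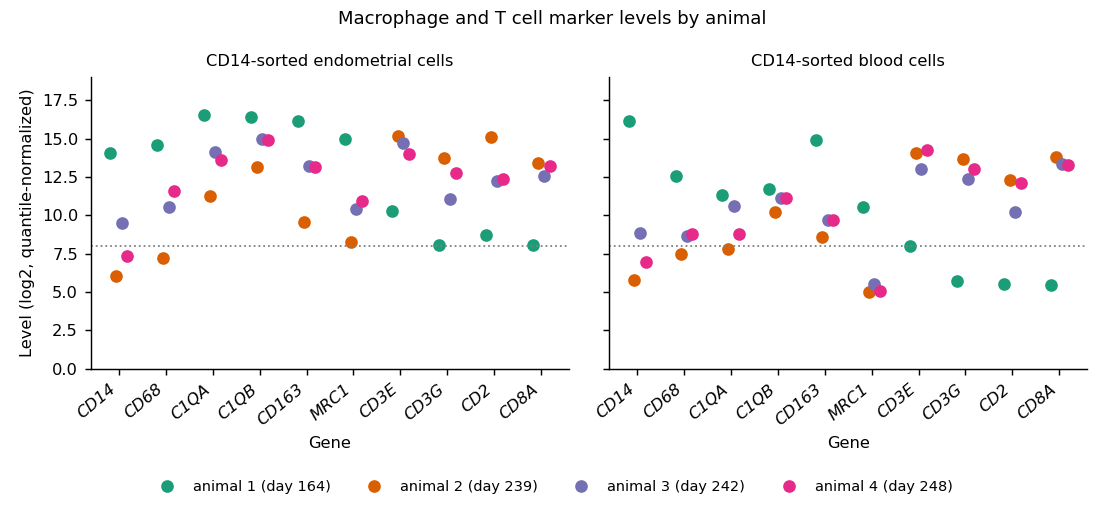
Levels (log2) of 6 macrophage markers and 4 T cell markers in each of the 4 animals, CD14-sorted endometrial cells on the left and CD14-sorted blood cells on the right; each point is 1 animal (mean of 2 hybridisations) and the dotted line is the median of all probes, 8.0. In both tissues animal 1 is the highest of the 4 for each macrophage marker and the lowest for each T cell marker.

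Broader lists gave the same order. Of 20 tissue macrophage genes, all were measured and 16 were detected. Each of the 16 was highest in animal 1 and 11 were lowest in animal 2, and their median level was 15.05, 9.88, 11.66 and 11.61 in animals 1 to 4. STAB1, a scavenger receptor of resident macrophages, was at 17.14, 12.54, 11.69 and 14.21, and GPNMB, a glycoprotein of lipid-laden macrophages, was at 16.60, 6.66, 15.07 and 14.13. CD5L, a lipid-binding protein secreted by tissue macrophages, was at 14.87 and 11.45 in animals 1 and 3 and at 5.98 and 5.79 in animals 2 and 4. TREM2, a lipid receptor, was detected with lower values and a narrower range, from 6.56 to 9.52. LYVE1, SIGLEC1, MERTK and MARCO were above background in only some of the endometrial channels, and in the library of animal 3 SIGLEC1, the sialic acid receptor CD169, stood at 3.05.

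Genes that many leukocytes share varied less. Of 22 measured myeloid core genes 19 were detected, with a median SD over animals of 1.33 against 2.48 for the tissue macrophage list and 0.90 for all detected probes. ITGB2, the common beta chain of the leukocyte integrins, was at 15.45, 15.47, 15.32 and 15.42, and LAPTM5, a lysosomal membrane protein of blood cells, ranged from 16.51 to 16.92. AIF1, an actin-bundling protein of macrophages, was at 14.53 in animal 2 and between 16.07 and 16.09 in the other 3. By contrast, CSF1R, the receptor for macrophage colony stimulating factor, spanned 10.71 in animal 2 to 16.15 in animal 1. CD33 was not well above background in any endometrial channel, and ITGAM, which codes for CD11b, was above it in 2 of 8, at 8.19 in animal 1 and at most 3.27 in the others.

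Natural killer and T cell markers stood in the opposite order. Of 29 listed genes 26 were measured and 22 detected, of which 18 were lowest in animal 1 and 18 were highest in animal 2, against 37.0% and 24.3% of all detected probes. Their median level was 10.34, 15.03, 12.40 and 13.32 in animals 1 to 4. CD3E, a chain of the T cell receptor complex, was at 10.29, 15.18, 14.72 and 13.98, and CD3G was at 8.07, 13.76, 11.07 and 12.76. CD2, an adhesion receptor of T and natural killer cells, was at 8.72, 15.07, 12.26 and 12.34, and CD8A at 8.08, 13.39, 12.55 and 13.18. The 3 later cows were above the earliest for all 4 genes. The summed signal of the list, as log2 of the sum of linear signals, ran from 17.30 to 19.89 in endometrium and from 15.92 to 18.84 in blood.

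Cytotoxic effector genes differed in how evenly they stood. PRF1, the pore-forming protein perforin, was at 10.42, 15.65, 13.50 and 14.33. GZMB, the serine protease granzyme B, was at 16.01, 17.31, 16.44 and 15.86, although its other probe read lower and over a wider range, from 8.97 to 15.54. NKG7, a granule membrane protein, was at 16.85 in animal 2 and between 15.50 and 15.60 in the others. CCL5, a chemokine of activated T cells, was at 13.90 in animal 1 and at 16.56, 16.63 and 17.30 in animals 2 to 4.

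In blood CD14+ cells of the same cows the animals at the extremes were the same for macrophage markers and for natural killer and T cell genes. In blood CD14 was at 16.12, 5.76, 8.85 and 6.94, and the 6 macrophage markers were again all highest in animal 1, as were 30.4% of all detected probes. All 22 detected natural killer and T cell genes were lowest in animal 1 in blood, where 42.6% of detected probes were, and their median there was 7.29 against 12.33 to 13.73 in animals 2 to 4. In both tissues CD14 lay below the probe median in animals 2 and 4. The same preparations were hybridised together on each array, and whether signal of one channel reached the other was not tested.

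**Figure D2:**
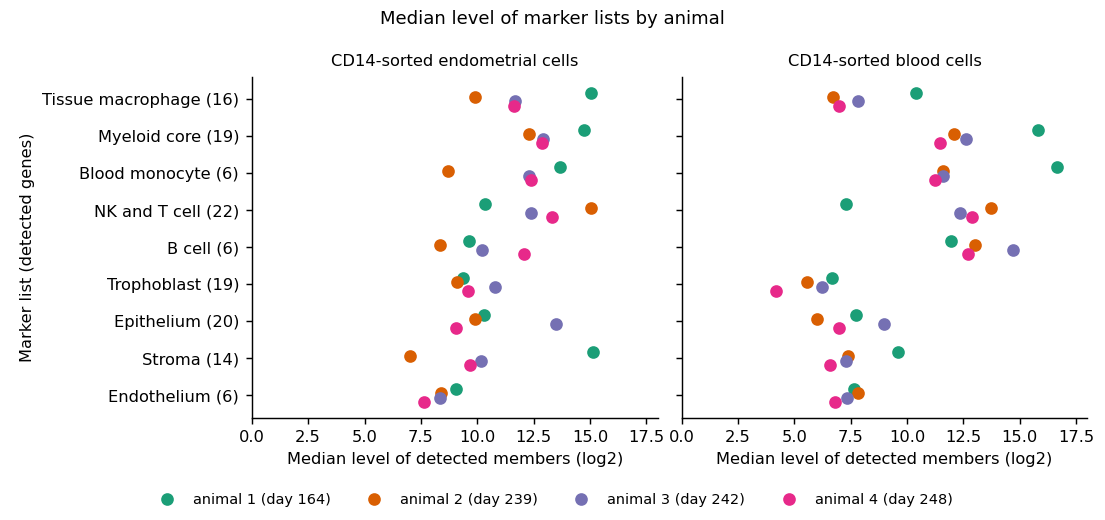
Median level (log2) over the detected members of 9 cell type lists in each animal, CD14-sorted endometrial cells on the left and CD14-sorted blood cells on the right, with the number of detected genes beside each list. Tissue macrophage genes and stromal genes are highest in animal 1 and natural killer and T cell genes are lowest there, and epithelial genes are highest in animal 3.

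Markers of cells that a CD14 sort should leave behind were measured too. Trophoblast genes, chiefly for pregnancy-associated glycoproteins and prolactin-related proteins made by the ruminant placenta, were measured for 32 genes and detected for 19. Their median level was 9.38, 9.08, 10.78 and 9.58 in animals 1 to 4. PAG10 was at 15.04, 13.87, 16.51 and 14.77, and the prolactin-related protein gene PRP1 at 12.98, 12.53, 14.05 and 12.62. CSH2, placental lactogen, was at 12.33, 12.72, 13.75 and 11.27. Their SD between animals had a median of 0.99, against 2.48 for the tissue macrophage genes, and 14 of the 19 were highest in animal 3, against 29.5% of all detected probes. CDX2, GCM1, PAG2 and TKDP1 were not well above background in any endometrial channel. Whether a probe of one such family member also bound transcripts of others was not tested.

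Epithelial genes were highest in animal 3. Of 29 measured genes 20 were detected, 18 of them highest in animal 3, and the median level was 10.30, 9.90, 13.50 and 9.07. SERPINA14, the uterine milk protein secreted by endometrial glands under progesterone, was at 14.06, 15.29, 17.61 and 17.44. The keratins KRT8 and KRT18 of simple epithelium were at 14.74 and 15.38 in animal 3, while in the other animals KRT8 ran from 10.39 to 11.32 and KRT18 from 11.38 to 12.57. EPCAM, an epithelial adhesion molecule, was at 11.67, 10.33, 14.84 and 10.33. FOLR1, a folate receptor whose probe the files describe as similar to human FOLR2, was at 13.14 in animal 3 and between 3.70 and 4.81 in the others. CLDN10 was not well above background in any endometrial channel.

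Stromal genes followed the macrophage order. Of 29 measured genes 14 were detected, 10 of them highest in animal 1 and 10 lowest in animal 2, with medians of 15.15, 7.00, 10.16 and 9.66. DCN, the collagen-binding proteoglycan decorin, was at 15.97, 5.78, 11.74 and 9.11, and its other probe kept animal 1 highest at 14.06. COL1A1, a chain of type I collagen, was at 15.84, 5.39, 9.77 and 10.59. LUM, the proteoglycan lumican, was at 14.28, 2.53, 6.12 and 2.5 and was above background in 4 of 8 channels. MYL9, a myosin light chain of contractile cells, was the even one of the list, from 15.17 to 15.85. The summed signal of the stromal list ran from 15.82 to 19.15 in endometrium and from 14.73 to 16.94 in blood, and that of the epithelial list from 16.34 to 19.03 and from 12.89 to 13.96.

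Endothelial, erythroid, B cell, monocyte and granulocyte genes made up the rest. Of 16 measured endothelial genes 6 were detected. VWF, the von Willebrand clotting factor, was at 9.74, 10.00, 13.04 and 5.96, whereas CLDN5, a tight junction protein, varied only from 10.38 to 11.93. The globin genes were highest in animal 2: HBA, alpha globin, was at 12.20, 17.93, 11.50 and 15.12, and HBB, beta globin, at 6.39, 15.53, 7.80 and 9.75. ALAS2, the erythroid enzyme of haem synthesis, was at 3.38, 14.98, 5.02 and 8.70 and above background in 5 of 8 channels. Of 10 measured erythroid and platelet genes 3 were detected: HBA, HBB and 1 other, which was highest in animal 3 and lowest in animal 2. EPOR, PF4 and SLC4A1 were never above background in endometrium.

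B cell genes were highest in animal 4. Of 12 measured genes 6 were detected and 5 of these were highest in that animal, as were 29.0% of all detected probes. MS4A1, the CD20 antigen, was at 6.72, 5.51, 8.94 and 11.82. Of 12 measured blood monocyte genes 6 were detected and 5 of these were lowest in animal 2. S100A8, a calcium-binding alarmin of monocytes and neutrophils, was at 13.74, 8.16, 14.30 and 12.81, and FCN1, ficolin of monocytes, at 12.64, 8.43, 9.08 and 10.66. Of 13 measured granulocyte and mast cell genes 5 were detected, with medians of 5.98, 8.31, 8.47 and 8.13, and CAMP and MMP8 were never above background. For these cell types the part that their transcripts have in any difference below was not tested, except as the values beside it show.

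The brightest probes, many of them for housekeeping transcripts, stood at similar levels in the 4 preparations. Of 21475 probes, 11885 (55.3%) were detected in all 8 endometrial channels. Among the 40 brightest probes with a gene symbol, whose mean levels ran from 16.62 to 17.67, 19 were for ribosomal proteins. The list also held FTH1, the heavy chain of the iron store ferritin, TMSB4X, the actin-sequestering thymosin beta 4, EEF2, an elongation factor, TUBA1B, an alpha tubulin, the stress chaperone HSPA1A and the leukocyte gene LAPTM5. Brightness of a probe depends on its sequence as well as on the transcript, so the set is given without a rank. The SD of these 40 probes over animals had a median of 0.23 and a range from 0.08 to 0.77. Every channel was brought to the same distribution, so a high mean leaves little room for spread. The evenness of this set is therefore partly fixed by how it was chosen.

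Within that set FTH1 was at 17.48, 17.04, 18.08 and 18.08 and TMSB4X at 17.59, 17.65, 17.90 and 17.52. HSPA1A was at 17.71, 17.64 and 17.43 in animals 1 to 3 and at 16.08 in animal 4. The 82 detected probes of ribosomal proteins had a median level of 15.81 and a median SD of 0.38. Of the bright detected probes, the smallest spread belonged to YWHAB, a 14-3-3 adaptor protein, at 14.18, 14.25, 14.21 and 14.21. MYL6, a non-muscle myosin light chain, ran from 15.67 to 15.75 and PTMA, prothymosin alpha, from 16.19 to 16.30. The same group held ITGB2 and HSPE1, a mitochondrial chaperonin that ran from 15.31 to 15.41.

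Beyond this set the animals differed widely. The SD of a detected probe over the 4 animals had a median of 0.90 in endometrium and 0.63 in blood, and was larger in endometrium for 7880 probes (66.3%). These probes were chosen for signal in endometrium alone, with no requirement in blood, which limits the comparison of the 2 tissues. The SD between the 2 hybridisations of an animal had a median of 0.11, below the SD between animals for 98.9% of probes. For 1882 probes (15.8%) the 4 animals lay within 1 log2 unit, and for 325 (2.73%) they spanned more than 6. Of those 325 probes, 140 were highest in animal 1, 172 were lowest in animal 2 and 126 were highest in animal 3. Without animal 3 the median SD was 0.77 and without animal 1 it was 0.80.

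**Figure D3:**
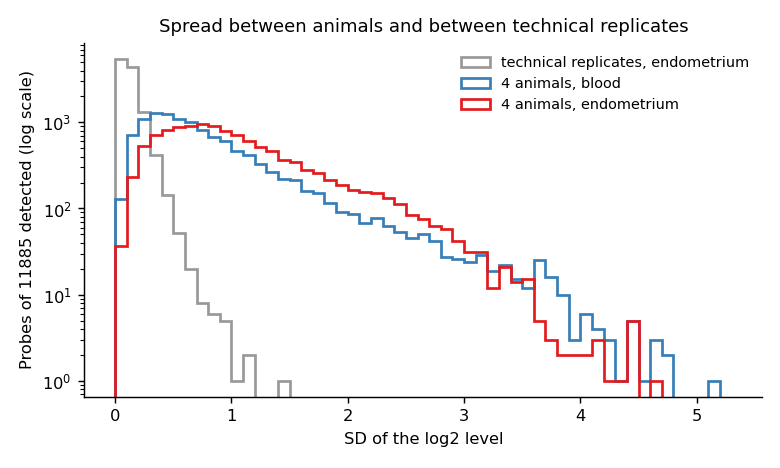
Histogram of the SD of the log2 level over the 11885 probes detected in endometrium, on a log count axis, for the 4 animals in endometrium, the 4 animals in blood and the 2 hybridisations of each animal in endometrium. The SD between hybridisations (median 0.11) lies to the left of the SD between animals in blood (median 0.63) and in endometrium (median 0.90).

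Across detected probes the correlation between 2 animals in endometrium ran from 0.753 for animals 3 and 4 to 0.861 for animals 2 and 4, with a mean of 0.795 over 6 pairs. In blood, over the same probes detected in endometrium, animals 2, 3 and 4 correlated at 0.922 to 0.956 with each other and at 0.763 to 0.799 with animal 1. The 2 hybridisations of one endometrial preparation correlated at 0.996 to 0.997. Endometrium and blood of the same cow correlated at 0.867, 0.861, 0.706 and 0.912 in animals 1 to 4, lowest in animal 3. Endometrium of animal 3 was in Cy5 and its blood in Cy3 on both arrays, whereas dyes were swapped in the other cows. The endometrial channels of animal 3 also had the fewest spots well above background, 66.4% and 65.2%, against 68.6% to 82.9% in the other cows. A dye effect, a dimmer signal and a difference between the tissues therefore cannot be told apart for the correlation of animal 3. These correlations are across probes of one array type, which are not independent replicates, and share slide and normalization.

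The 20 probes with the widest spread held several stromal and macrophage genes. CLEC14A, an endothelial lectin, had the largest SD, with levels of 15.72, 6.03, 13.92 and 8.03. SPP1, the secreted phosphoprotein osteopontin, was at 16.54, 6.15, 14.32 and 12.06, and FBLN1, the matrix protein fibulin 1, at 16.66, 6.99, 8.43 and 8.16. SPARC, CD5L, GPNMB, DCN, COL1A1 and COL1A2 were also among them. Other genes of the 20 were highest in animal 3: PRLR, the prolactin receptor, was at 7.47, 10.70, 16.41 and 13.58, and MEP1B, a subunit of the metalloprotease meprin, at 8.03, 10.15, 16.40 and 13.66.

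Single animals also stood apart for single genes. PODN and SCARA5, a matrix proteoglycan and a ferritin receptor of fibroblasts, were at 14.96 and 14.26 in animal 1, while in the other 3 animals PODN was between 2.64 and 2.88 and SCARA5 between 2.41 and 2.52. EIF4B, a translation initiation factor, was low in animal 1, at 4.68 against 11.23 to 12.61, and so was TBX20, a T-box transcription factor, at 4.30 against 9.86 to 11.01. In animal 2 CCN3, a matricellular protein, stood at 2.34 against 6.97 to 14.89. IL21, a cytokine of activated T cells, was at 11.72 in animal 3 and at most 3.43 elsewhere. For AXL, a receptor for dying cells, the probes disagreed about animal 3, where one was at 2.88 and another at 8.77, with animal 1 highest on both. TDRD9, a helicase of the germ line, was at 12.16 in animal 4 and between 2.48 and 3.06 elsewhere, and its other probe also had animal 4 highest.

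MHC class II genes set animal 4 apart in both tissues. BOLA-DQB, which codes for a beta chain of the DQ antigen-presenting molecule, was at 16.03, 12.96, 13.66 and 4.33 in endometrium and at 16.18, 16.19, 17.02 and 4.02 in blood. BOLA-DQA5, an alpha chain gene, was at 14.71, 10.64, 12.22 and 2.41 in endometrium and at 2.40 in the blood of animal 4. The probe for BOLA-DQA2, another alpha chain gene, ran the other way, at 4.22, 3.51, 4.39 and 14.12 in endometrium and 14.04 in the blood of animal 4, although a second BOLA-DQA2 probe stood between 2.49 and 3.11 in endometrium. No such gap was seen for BOLA-DRA or CD74, the invariant chain, for which animal 4 was at 15.06 and 15.35. The class II sequences that each cow carries were not measured.

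**Figure D4:**
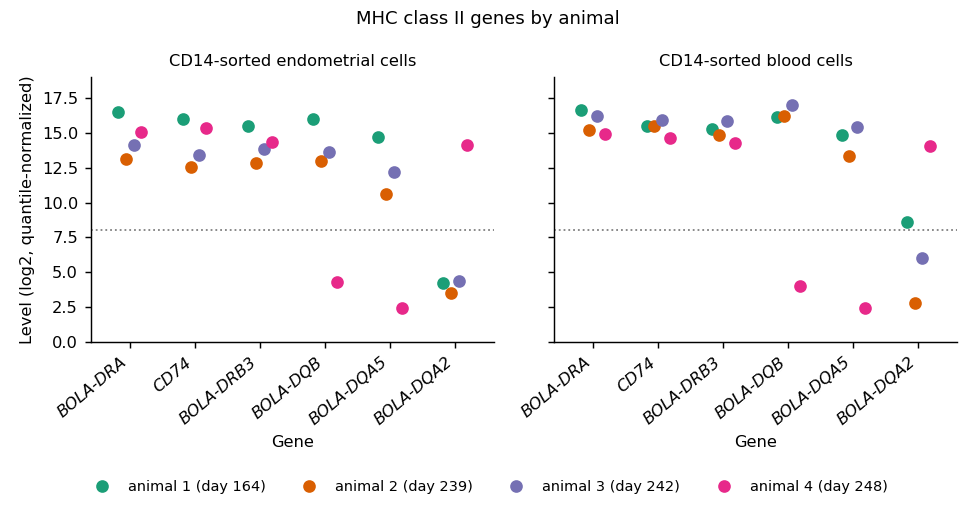
Levels (log2) of 6 MHC class II genes in each animal, CD14-sorted endometrial cells on the left and CD14-sorted blood cells on the right; each point is 1 animal and the dotted line is the median of all probes. In both tissues animal 4 is below 5 for BOLA-DQB and BOLA-DQA5 and above 14 for BOLA-DQA2, whereas for BOLA-DRA it lies close to the others.

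Antigen presentation as a whole was bright. Of 21 measured class II pathway genes 15 were detected, with a median level of 12.89 against 10.81 for all detected probes. CD74 was at 16.03, 12.53, 13.44 and 15.35 and BOLA-DRA at 16.47, 13.10, 14.16 and 15.06, so both were lowest in animal 2, as were 8 of the 15. LGMN, a lysosomal endopeptidase, was at 16.46, 10.87, 14.13 and 15.36.

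Lysosomal genes were detected almost throughout, 34 of 37, with a median level of 13.83. LAMP1, a lysosomal membrane glycoprotein, ran from 16.10 to 17.02, and CTSD, the aspartic protease cathepsin D, had a mean of 16.26 with an SD of 0.29. CTSK, the collagen-degrading cathepsin K, was less even, at 15.07, 8.62, 8.02 and 10.27. Among 24 measured iron and haem genes 19 were detected. HMOX1, the inducible haem oxygenase, was at 17.09, 15.55, 17.28 and 15.95, and FTL, the ferritin light chain, ran from 15.15 to 16.05. SLC40A1, the iron exporter ferroportin, was at 14.91, 8.67, 12.70 and 13.64, and its other probe was likewise highest in animal 1 and lowest in animal 2.

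Lipid genes were detected for 21 of 29. PLTP, a phospholipid transfer protein, ran from 13.31 to 15.25. OLR1, a scavenger receptor for oxidised lipoprotein, was at 14.01 in animal 1 and between 6.66 and 8.19 in the others, while APOA1, apolipoprotein A1, stayed between 6.85 and 7.30. Of 28 measured complement genes 17 were detected. CFB, a factor of the alternative pathway, was at 15.68, 11.57, 16.22 and 13.13, whereas CD46, a regulator on most nucleated cells, ran only from 13.91 to 14.52.

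Genes linked to alternative activation, the state that interleukin-4 induces, were detected for 19 of 25. CCL24, an eosinophil chemokine, was at 16.64, 8.29, 14.31 and 12.51. CCL22, which attracts regulatory and helper T cells, was at 13.90, 7.97, 7.34 and 10.03. Of the 19 genes 15 were highest in animal 1 and 12 were lowest in animal 2. For the list linked to classical, interferon-gamma driven activation 21 of 28 were detected. TNF, the inflammatory cytokine, ran from 14.60 to 16.28 on its brighter probe and from 10.44 to 12.43 on the other. IL1A, interleukin-1 alpha, was at 15.37, 7.90, 10.84 and 9.29. PTGS2, the inducible cyclooxygenase, was at 11.78, 7.48, 10.54 and 11.16. IDO1, which degrades tryptophan, was low in animal 1, at 4.09 against 9.36 to 10.84.

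Chemokine genes were detected for 16 of 30. CCL4, a chemokine of activated leukocytes, was at 14.64 in animal 3 and between 15.23 and 15.25 in the others. CCL2, which recruits monocytes, was at 17.01, 10.91, 15.02 and 13.86, and CXCL8, which recruits neutrophils, ran from 9.78 to 13.14. For matrix remodelling 19 of 35 genes were detected. SERPINE2, a protease inhibitor, was even at 15.20 to 15.88, while MMP12, the macrophage elastase, was at 13.76, 4.47, 11.30 and 8.08 and above background in 6 of 8 channels. Growth factor genes were detected for 15 of 36. VEGFA, the main angiogenic factor, ran from 11.05 to 12.76, CSF1, the macrophage growth factor, from 8.19 to 8.70, and INHBA, a subunit of activin, was at 13.52, 12.22, 17.37 and 15.70.

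Genes that restrain immune responses were detected for 19 of 27. TNFRSF1B, a receptor for tumour necrosis factor, ran from 14.60 to 15.90 and HAVCR2, the checkpoint receptor TIM-3, from 9.95 to 10.58. CD274, the checkpoint ligand PD-L1, was not well above background in any endometrial channel. Interferon-stimulated genes were detected for 23 of 27, with a median level of 11.44. B2M, the light chain of MHC class I, ran from 15.48 to 16.28 and ISG15, a ubiquitin-like modifier, from 13.67 to 15.60, whereas MX2, a GTPase with antiviral relatives, was at 5.83 in animal 2 and between 9.25 and 12.13 in the others.

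Of 35 measured immediate early and heat shock genes 33 were detected, with a median level of 15.04 and a median SD of 0.61. JUND, a subunit of the AP-1 transcription factor, ran from 16.48 to 17.05 and EGR1, an early growth response factor, from 14.63 to 17.06. FOSB, another AP-1 subunit, was at 16.84, 16.90 and 16.57 in animals 1 to 3 and at 14.80 in animal 4, the animal in which its other probe was lowest too. Myeloid transcription factors were detected for 26 of 29, and CEBPB, a factor of myeloid differentiation, ran from 15.08 to 15.86. Cell cycle genes were detected for 17 of 29. TK1, thymidine kinase, ran from 14.60 to 15.19 and TYMS, thymidylate synthase, from 12.76 to 14.42.

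Against blood of the same cows, 224 of 16653 tested probes (1.35%) were called, 204 higher in endometrium (1.23%) and 20 higher in blood (0.12%). A call needs a Benjamini-Hochberg adjusted p of at most 0.05 by limma on the within-animal difference and a fold over 2. All 204 were higher in endometrium in each of the 4 animals, with mean differences from 2.73 to 6.91 on the log2 scale. The call was made on these same 4 differences, so the shared sign is not a separate result. Over all tested probes 9.82% were higher in endometrium in all 4 animals and 15.2% were lower in all 4. The median difference of all tested probes was -0.14. The count moved with the animals and with the processing. Without animal 4 no probe was called by limma (2674 at unadjusted p), 64 were called without animal 1, 180 without animal 2 and 95 without animal 3. From the scanner medians, background-corrected with normexp, 11 were called and 1729 reached the threshold unadjusted, and the analysis of variance of the methods gave 0 calls after Benjamini-Hochberg and 1229 before it. The gene lists used below were chosen with earlier results of these data known. The number of calls within a list is therefore partly fixed by that choice and only describes its members.

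Of the 6 macrophage markers 3 were called higher in endometrium. C1QA was higher by 4.25 ± 0.45 (SE, n = 4 animals, limma adjusted p = 0.0142), C1QB by 3.81 ± 0.36 (adjusted p = 0.0168 by limma) and MRC1 by 4.59 ± 0.55 (adjusted p = 0.0142 by limma). CD14 differed by -0.17 ± 0.64 (adjusted p = 0.919 by limma), and without animal 1 the difference was 0.47. CD68 at 1.61 ± 0.67 and CD163 at 2.30 ± 0.69 had limma adjusted p of 0.276 and 0.181. The median difference of the 6 was 3.05. Without animal 4, C1QA was higher by 4.05, C1QB by 3.81 and MRC1 by 4.16. With one cow left out the 3 genes had adjusted p from 0.0296 to 0.0876, all 3 were above 0.05 without animal 1 and without animal 4, and C1QB and MRC1 were without animal 3. Levels of natural killer and T cell genes, whose summed signals are given above, had a median difference of 0.48. It was 0.25 without animal 1 and 0.81 without animal 3. Of 26 tested, none was called by limma. At unadjusted p 9 were higher by limma, against 7.98% of all tested probes, and 2 by the analysis of variance, against 3.8%. In all 4 animals 10 were higher in endometrium and 2 lower, against 9.82% and 15.2% of all tested probes. A called granzyme A probe under another symbol, gzmA, is not counted in this list and is given below.

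Of 20 tested tissue macrophage genes 7 were called and 10 were higher in endometrium in all 4 animals, with a median difference of 3.50, which was 2.18 from the scanner medians. SLCO2B1, an organic anion transporter, stood at 16.53, 10.82, 12.91 and 12.06 in endometrium and at 10.01, 6.17, 7.23 and 6.34 in blood, a difference of 5.64 ± 0.38 (limma adjusted p = 0.00733). TIMD4, a receptor for phosphatidylserine on dying cells, differed by 4.92 ± 0.45, MSR1, the class A scavenger receptor, by 4.61 ± 0.43 and FOLR2, a folate receptor of macrophages, by 4.56 ± 0.41, with limma adjusted p between 0.00954 and 0.0109. The other MSR1 probe missed the threshold, at an adjusted p of 0.0560. APOE, apolipoprotein E, C1QC and VSIG4, a complement receptor that passed background in 2 of 8 blood channels, were the other 3. Without animal 4 SLCO2B1 was higher by 5.62. Called counts for this list were 2 without animal 1, 5 without animal 3, 10 without animal 2 and 0 without animal 4. Of the 16 detected genes, all highest in animal 1 in endometrium, 15 were highest in animal 1 in blood too, whereas 7 were lowest in animal 2 there.

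Placental and epithelial genes were among those called. Of 27 tested trophoblast genes 15 were called higher in endometrium. PRP6 stood at 13.09, 12.61, 14.03 and 11.78 in endometrium and at 7.67, 6.82, 8.41 and 5.67 in blood, higher by 5.74 ± 0.15, and PRP1 was higher by 5.25 ± 0.17, both with a limma adjusted p of 0.00733. In blood PRP1 and PRP6 had the order of animals 3, 1, 2 and 4, and in endometrium animals 3 and 1 were also the highest. PAG17 was never well above background in blood and was at least 7.02-fold higher in endometrium, and PAG5, PRP3, PAG15, PAG6 and PAG21 were at least 2.56-fold to 3.41-fold higher, with limma adjusted p from 0.00733 to 0.00826. Such a bound sets the endometrial mean against, on each array, the dimmest signal that passes for well above background or the probe's own blood signal where that is higher, per channel after loess and quantile steps. Animal 3 had no dye swap, so a dye effect is not balanced in such a bound. The list's median difference was 4.63, and it was 1.77 with the 7 genes that were never above background in blood set at their bound, 1.39 from the scanner medians and 2.79 with no filter on dim probes. Without animal 4 PRP6 was higher by 5.61 and PRP1 by 5.11. Over the list the calls numbered 5 from the scanner medians, 13 and 14 without animals 1 and 3, and 0 without animal 4.

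Among 28 tested epithelial genes 11 were called, with a median difference of 2.76, which was 1.53 from the scanner medians. SERPINA14 was higher by 6.53 ± 0.57, or 6.34 without animal 4, and KRT7, a keratin of glandular epithelium that passed background in 2 of 8 blood channels, by 5.88 ± 0.48, both with a limma adjusted p of 0.00733. KRT18 was higher by 3.91 ± 0.30 (limma adjusted p = 0.0138) and EPCAM by 4.41 ± 0.86 (limma adjusted p = 0.0394). Of 24 tested stromal genes 2 were called: DCN was higher by 5.26 ± 1.12 and COL3A1, type III collagen, which also passed in 2 of 8 there, by 4.86 ± 1.00, both with a limma adjusted p of 0.0394, and the other DCN probe missed the threshold at 0.322. None of 16 endothelial genes and none of 7 erythroid and platelet genes was called by limma. At unadjusted p 4 endothelial genes were higher and 1 erythroid or platelet gene was lower, against 7.98% and 8.05% of all tested probes. None of either list passed by the unadjusted analysis of variance. Epithelial calls numbered 5 without animal 1, 8 without animal 2, 7 without animal 3, 0 without animal 4 and 1 from the scanner medians, and stromal calls 0, 4, 0, 0 and 0.

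**Figure D5:**
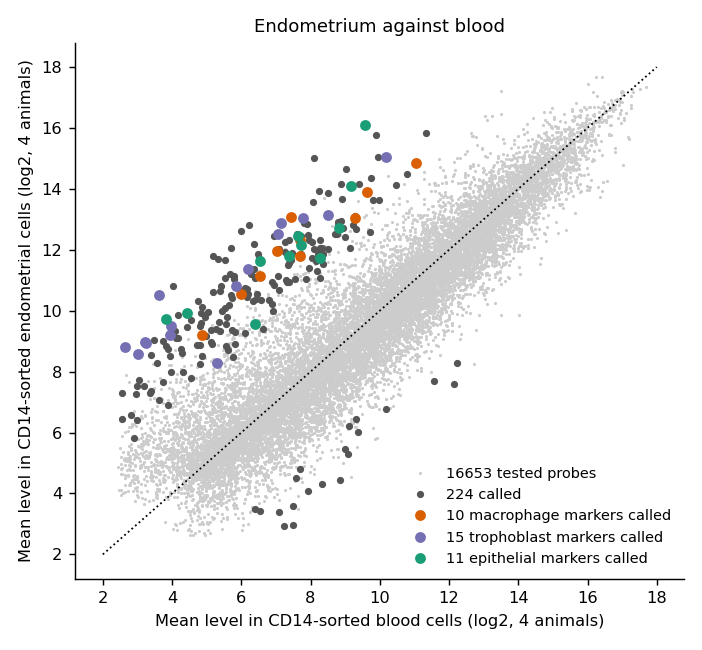
Mean level over 4 animals in CD14-sorted endometrial cells (y axis, log2) against CD14-sorted blood cells (x axis, log2) for 16653 tested probes; dark grey points are the 224 called probes, coloured points the called macrophage, trophoblast and epithelial markers, and the dotted line marks equal levels. Most called points, 204 of 224, lie above the line.

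Of the 204 probes called higher in endometrium, 182 carried a symbol, 30 belonged to the placental, epithelial, stromal or endothelial lists and 10 to the macrophage lists. The largest fitted difference was that of a probe named gzmA, a granzyme A gene entry, at 12.98, 16.96, 15.53 and 14.61 in endometrium and 6.52, 8.87, 8.74 and 8.31 in blood, which gives 6.91 ± 0.41 (limma adjusted p = 0.00733). The separate probe for GZMA, the one counted in the natural killer and T cell list, differed by 2.55 and was not called (limma adjusted p = 0.103). PAGE4, which belongs to a family of cancer and testis antigens, was higher by 6.60 ± 0.28, MEGF10, an engulfment receptor well above background in 3 of 8 blood channels, by 6.14 ± 0.39 and RARRES1, a retinoid-responsive gene, by 5.68 ± 0.48, all with a limma adjusted p of 0.00733. The second probes of MEGF10 and RARRES1 differed by 2.12 and 0.87 and were not called. None of these calls was made without animal 4, where their adjusted p was 0.0574.

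Calls within the functional lists, which were chosen with earlier results of these data known, were few. Complement had 5 of 25 tested genes called, namely the 3 C1q chains, VSIG4 and CLU, the extracellular chaperone clusterin, and a median difference of 2.02, which was 1.07 without animal 1 and 1.21 from the scanner medians. The alternative activation list had 5 of 24, with a median difference of 0.96, or 1.48 without animal 2: CCL22, well above background in 2 of 8 blood channels, was higher by 4.86 ± 0.40 (limma adjusted p = 0.00876), CCL24 by 4.06 ± 0.10 (limma adjusted p = 0.00978), and MSR1, MRC1 and FOLR2 are given above. Of 24 chemokine genes 3 were called, CCL22, CCL24 and CXCL14, a chemokine of epithelia, which was higher by 5.20 ± 0.33 (limma adjusted p = 0.00733). Those lists had 0, 1 and 1 calls without animal 1, 2, 4 and 3 without animal 3 and none without animal 4.

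Single genes were called in other lists. For growth factors 2 of 28 were called: STC1, the calcium-regulating hormone stanniocalcin, was higher by 5.37 ± 0.49 (limma adjusted p = 0.00828), with its other probe called too, and ESM1, an endothelial proteoglycan, by 5.55 ± 0.40 (limma adjusted p = 0.00733). Osteopontin, SPP1, was higher by 5.0 ± 0.61 (limma adjusted p = 0.0127) and PLAT, tissue plasminogen activator, by 3.75 ± 0.57 (limma adjusted p = 0.0317), 2 of 29 matrix genes. CTSV, whose probe the files describe as cathepsin L, was the 1 of 37 lysosomal genes called, higher by 5.62 ± 0.52 (limma adjusted p = 0.00818). NT5E, the adenosine-forming ectoenzyme CD73, was higher by 4.96 ± 0.49 (limma adjusted p = 0.0101) on its brighter probe and differed by -1.28 (limma adjusted p = 0.411) on the other. VSIG4 was the other call among 25 genes that restrain immune responses, and MSR1 and APOE were the calls among 25 lipid genes. Without animal 4 none of them was called. The adjusted p of SPP1, PLAT, APOE and VSIG4 was above 0.05 without animal 1 and without animal 3, and that of NT5E and CTSV was above it without animal 1. Without animal 2 the growth factor list had 5 calls and the matrix list 4.

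Heat shock gene HSPA6, an inducible chaperone, stood at 13.21, 13.23, 12.96 and 9.31 in endometrium and at 8.65, 5.65, 6.43 and 4.79 in blood, higher by 5.80 ± 0.76 (limma adjusted p = 0.0111), 1 of 35 genes of its list. Its adjusted p was 0.0519 without animal 3 and 0.0574 without animal 4. HSPA1A was higher in each animal, by 3.71 ± 0.74 on average, with a limma adjusted p of 0.0523, and a dimmer probe of it was called at 0.0188. Its dimmest probe differed by 2.12 and was not called (limma adjusted p = 0.226). Since only endometrium was digested with collagenase, tissue of origin and preparation cannot be told apart for these genes. The same holds for every other difference between endometrium and blood given here.

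In some lists without a call the median difference between endometrium and blood was below the -0.14 of all tested probes. Class II genes had a median difference of -1.02, or -0.67 without animal 2 and -0.68 without animal 3, and no call by limma among 19 tested, with 2 lower at unadjusted p. Classical activation genes had -1.17 with no call among 24, 9 genes lower in all 4 animals, and 1 higher and 10 lower at unadjusted p. Interferon-stimulated genes had -0.70, or -0.24 without animal 1, with no call among 27 and 7 lower at unadjusted p, and blood monocyte genes -1.03 with no call among 11 and 2 lower. The blood monocyte median was -0.22, -0.52, -1.59 and -1.70 without animals 1 to 4. By the unadjusted analysis of variance 1 class II gene, 4 classical activation genes, 1 interferon-stimulated gene and 1 blood monocyte gene were lower in endometrium. Over all tested probes 7.98% were higher and 8.05% lower at unadjusted p by limma, and 3.8% and 3.58% by the unadjusted analysis of variance.

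For another 4 lists limma gave no call in either direction. Myeloid core genes had a median difference of 0.11 with 4 genes higher and 1 lower at unadjusted p, iron and haem genes 0.99 with 9 and 1, myeloid transcription factors -0.30 with 5 and 1, and cell cycle genes 0.04 with 2 and 2. With 1 animal left out the myeloid core median ran from -0.26 (without animal 2) to 0.20 (without animal 1), and that of cell cycle genes from -0.37 (without animal 1) to 0.41 (without animal 3). The iron and haem median was 0.57 without animal 4 and 0.51 from the scanner medians, and the myeloid transcription factor median was -0.17 without animal 2 and -0.49 without animal 4. By the unadjusted analysis of variance they had 2 and 0, 5 and 1, 4 and 0, and 2 and 1. In the same order, 21, 22, 29 and 28 genes were tested. The shares of all tested probes were 7.98% higher and 8.05% lower by limma, and 3.8% and 3.58% by the analysis of variance, both unadjusted.

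Genes called higher in blood were few and included B cell genes. Of 12 B cell genes 2 were called and 7 were lower in endometrium in all 4 animals, with a median difference of -2.59, which was -1.59 from the scanner medians. BLK, a B cell kinase, was at 4.24, 5.97, 6.32 and 7.54 in endometrium and at 7.69, 9.54, 10.36 and 9.93 in blood, a difference of -3.36 ± 0.35 (limma adjusted p = 0.0269), and POU2AF1, a B cell coactivator well above background in 2 of 8 endometrial channels, differed by -4.41 ± 0.87 (limma adjusted p = 0.0397). FCRL3, an Fc receptor-like protein of lymphocytes, was never well above background in endometrium and was at least 1.79-fold higher in blood (limma adjusted p = 0.0111). CCR3, a receptor of eosinophils, differed by -4.31 ± 0.81, MEFV, the inflammasome protein pyrin, by -3.88 ± 0.26 and CXCR1, an interleukin-8 receptor whose probe the files describe as the beta receptor and the 1 call of 8 granulocyte genes, by -3.86 ± 0.44, with limma adjusted p from 0.0132 to 0.0374, CCR3 and CXCR1 being well above background in 2 of 8 endometrial channels each. Among all probes 1 call higher in blood was made without animal 1, 4 without animal 2, 1 without animal 3 and 0 without animal 4, and no B cell gene was called in any of them.

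The pairing by cow mattered for these counts. Without the animal as a block, limma on the 8 animal means called 38 probes, 35 higher in endometrium and 3 higher in blood, which included 14 trophoblast genes, 2 epithelial genes and no gene of the macrophage lists.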

How the data were processed

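RNA of CD14-sorted endometrial and blood cells of 4 cows was amplified, labelled and hybridised by the authors on 8 Agilent 2-colour arrays, 2 for each cow, with dyes swapped between the repeats in 3 cows and endometrium in Cy5 on both arrays of animal 3. Scanner intensities were extracted by the authors with Agilent Feature Extraction 9.5. The deposited log2 values had been lowess-normalized for each array and then quantile-normalized by the authors across 16 channels. The scanner files were held in 8 pairs of byte-identical copies. Each deposited log2 column matched for every probe, with the spots of a probe averaged and within 0.001, the dye its label names on the scanner file of the same cow's other repeat, and detection flags were read accordingly.

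Repeats were averaged, which leaves 4 values a tissue. A probe was tested when well above background in at least 4 of 8 channels of a tissue. The within-animal difference was tested with limma 3.58.1 (R 4.3.3), with Benjamini-Hochberg adjustment over 16653 probes, and SE is that of the mean difference over 4 animals. On simulated differences with the measured spread the test called none of the changed probes, and with a smaller spread it called most of them. Samples were grouped by their labels and paired because both tissues came from the same cow. The deviations of the 2 tissues of a cow from their group means correlated at 0.63, 0.37, 0.24 and 0.45 over 16653 probes in animals 1 to 4.

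Symbols came from identifiers in the files, matched by accession, gene identifier or name to RefSeq (ARS-UCD2.0, names only): 16934 of 21475 probes had one, for 15353 symbols. PAG1, which had been listed among trophoblast genes, was left out after its values were seen, because the files describe its probes as another gene, a lymphocyte adaptor. A gene with several probes was given by its brightest probe, with others where they disagreed. Named genes were list members (the brightest, widest, narrowest and called), the 40 brightest probes, the 20 widest, the 10 narrowest among bright probes, those that set 1 animal apart and those with the largest called differences. The members and lists were chosen with earlier results of these data known. Background correction, normalization, the filter on dim probes, the animal as a block, dye and slide terms, single repeats, the methods' analysis of variance and leaving out each cow were tried as alternatives. The number of arrays limits the precision. No sequences were used.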

Additional observations from a re-analysis of the deposited data

Results flagged for a closer look

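In 19 of 193 sets of 4 values (166 gene levels and 27 list medians, 4 animals each) 1 animal stood apart from the other 3 by Dixon's criterion, where chance flags about 1 in 20 groups. Some of these genes were chosen for their wide spread or for 1 animal standing apart, so the count cannot be set against chance. The explanations were not tested.

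Animal 1 was the one apart in several. It was high for ITGAM (8.19 against 2.77 to 3.27), FBLN1 (16.66 against 6.99 to 8.43), PODN (14.96 against 2.64 to 2.88), SCARA5 (14.26 against 2.41 to 2.52) and AXL (14.39 against 8.77 to 9.66). It was low for the granulocyte list median (5.98 against 8.13 to 8.47), CD8A (8.08 against 12.55 to 13.39), CD247, a T cell receptor signalling chain (12.43 against at least 15.45), and TBX20 (4.30 against 9.86 to 11.01).

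Animal 2 was low for AIF1 (14.53 against 16.07 to 16.09) and high for NKG7 (16.85 against 15.50 to 15.60). Animal 3 was high for FOLR1 (13.14 against 3.70 to 4.81) and IL21 (11.72 against 2.58 to 3.43), and low for CCL4 (14.64 against 15.23 to 15.25). Animal 4 was high for BOLA-DQA2 (14.12 against 3.51 to 4.39) and TDRD9 (12.16 against 2.48 to 3.06), and low for HSPA1A (16.08 against 17.43 to 17.71), HSPA6 (9.31 against 12.96 to 13.23) and FOSB (14.80 against 16.57 to 16.90).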

How the results depend on the processing

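The 224 calls between endometrium and blood became 11 from scanner medians with normexp, 123 with no filter on dim probes, 38 with no replicate block (the pairing by animal), 0 by the methods' analysis of variance after Benjamini-Hochberg and 1229 before it, 2670 by limma at unadjusted p (chosen after seeing the data), and 0 to 180 with 1 animal left out. The fit after leaving out animal 4 had a lowest adjusted p of 0.0574. The other alternatives gave 170 to 273 calls. With normexp the median difference of all probes was -0.02 in place of -0.14. Of 44 called genes named here, 42 were still called on the processed signal, 35 with dye and slide terms, 9 without the block, 4 with normexp, and 17, 37, 26 and 0 without animals 1 to 4. Differences turned sign for CD14 without animal 1 (0.47, limma adjusted p = 0.745, against -0.17 with all animals and down to -0.45 with 1 left out) and on the second probe of NT5E (-1.28, limma adjusted p = 0.411). The mean correlation between animals, 0.795, was 0.861 with no filter and 0.780 to 0.819 with 1 animal left out. The median SD between animals, 0.899, was 0.680 with normexp and 0.773 to 0.935 with 1 animal left out. Detected probes, 11885, numbered 11958 to 17552 under the alternatives. The cause of these changes was not tested.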
